A study of Mus musculus with 28 samples.

Results

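Hdac4, Hdac5, Hdac7 and Hdac9 encode the class IIa histone deacetylases (HDACs), Dach2 encodes a transcriptional co-repressor, and Mef2a, Mef2c and Mef2d encode myocyte enhancer factors 2 (MEF2). These 8 genes were chosen by name, with earlier results of these data known and with no measured value in the rule itself, out of 55359 genes listed in both tables of counts. All 8 passed the filter on low counts, among 15439 genes tested in the Dnm2 cohort and 14841 in the Bin1 cohort.

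Bulk RNA-seq was made from tibialis anterior (TA) muscle of 28 mice aged 8 weeks, in 7 groups of 4 mice, to follow tamoxifen in 2 models of centronuclear myopathy (CNM). In the Dnm2 cohort, WT mice and mice heterozygous for the S619L mutation of dynamin 2 (Dnm2 S619L/+) received placebo or tamoxifen. In the Bin1 cohort, WT mice received placebo, and mice with a skeletal muscle deletion of amphiphysin 2 (Bin1 mck-/-) received placebo or tamoxifen. The mutation of Dnm2 is carried by all cells of the animal, the deletion of Bin1 was made in muscle, and the Bin1 cohort held no WT mice on tamoxifen. The replicate number of each sample is used here as the number of the mouse within its group, and the WT mice of the Bin1 cohort are numbered 5 to 8.

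Gene counts per mouse summed to between 15586333 and 109710886 in the Dnm2 cohort and to between 24671835 and 35136327 in the Bin1 cohort, and these totals set the counting error of weakly expressed genes. Bin1 was 3.26 lower on the log2 scale in Bin1 mck-/- than in WT mice (edgeR adjusted p = 7.1e-10), and Bin1 was 0.81 higher in Dnm2 S619L/+ than in WT mice (adjusted p = 0.00176). Dnm2 itself did not pass the test in Dnm2 S619L/+ mice (log2 fold change 0.10, adjusted p = 0.344), and a point mutation need not alter the amount of its transcript. Markers of osteoblasts and osteocytes summed to 1.19 to 2.74 CPM (counts scaled by library size) in placebo mice of the Dnm2 cohort, to 190 to 693 CPM in WT mice on tamoxifen and to 5.06 to 327 CPM in Dnm2 S619L/+ mice on tamoxifen. Of these markers Ibsp, Sp7 and Dmp1 rose with tamoxifen in WT and in mutant mice (edgeR adjusted p under 0.05). Phex did not pass the test and pointed down (log2 fold change -0.50 in WT and -0.65 in Dnm2 S619L/+ mice). Among mice of the Bin1 cohort that sum was 202 CPM in Bin1 mck-/- tamoxifen mouse 2 and between 0.0731 and 1.96 CPM in the other mice. The labels give no sex. Xist, which is transcribed from the inactive X chromosome of female cells, was above 10 CPM in 2 of 4 mice of each Dnm2 cohort group other than Dnm2 S619L/+ tamoxifen, where it was above 10 CPM in 4 of 4, and in 12 of 12 mice of the Bin1 cohort.

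Class IIa HDACs have little deacetylase activity of their own. They are carried into the nucleus, bind MEF2 factors on DNA and recruit co-repressors, and they leave the nucleus when calcium-activated kinases phosphorylate them. In denervated muscle HDAC4 accumulates and represses Dach2, a repressor of myogenin, and myogenin then drives the genes of the acetylcholine receptor. MEF2 factors drive genes of the sarcomere and of slow, oxidative fibers.

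Sequences around transcription start sites are shown for the gene whose level changed in Dnm2 S619L/+ mice (Hdac4), for its denervation partner (Dach2) and for the members with a MEF2 motif near the start (Hdac5 and Mef2a). They come from RefSeq on GRCm38.p6, whereas the submitters' processing notes name mm39 for the counts, and each runs 5′ to 3′ on the strand of its gene from 100 bases before the start through 20 bases from it. The Hdac4 stretch is at chr1:92180322-92180441 (minus strand), that of Dach2 at chrX:113297410-113297529 (plus strand), that of Hdac5 at chr11:102230153-102230272 (minus strand) and that of Mef2a at chr7:67372839-67372958 (minus strand). Capitals mark the match to the MEF2 consensus in Hdac5 and Mef2a and a match to CANNTG, the E-box to which myogenin and MyoD bind, in Dach2, and matches to CANNTG in the other stretches are left in lower case.
Hdac4: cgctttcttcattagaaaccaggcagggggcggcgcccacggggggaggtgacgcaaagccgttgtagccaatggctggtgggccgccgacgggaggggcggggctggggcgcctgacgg
Dach2: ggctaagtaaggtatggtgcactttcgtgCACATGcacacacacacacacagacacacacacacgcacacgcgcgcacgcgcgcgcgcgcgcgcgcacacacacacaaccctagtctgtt
Hdac5: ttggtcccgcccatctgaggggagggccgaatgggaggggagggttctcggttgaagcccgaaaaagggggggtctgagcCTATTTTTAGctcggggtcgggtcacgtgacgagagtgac
Mef2a: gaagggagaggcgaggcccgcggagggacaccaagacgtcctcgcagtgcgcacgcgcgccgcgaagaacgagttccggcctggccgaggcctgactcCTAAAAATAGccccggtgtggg

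In the full windows of 300 bases, RefSeq gave 15 promoters for the 8 genes. Dach2 had 2 promoters, and CANNTG was found in that shown above and not in the other. The MEF2 consensus was found in 2 of these 15, those of Hdac5 and Mef2a, and in 3.19% of all 32851 promoters. CAGCTG, the E-box most used by myogenic factors, was found in 3 of 15 (16.3% of all promoters), and CANNTG, which includes it, in 8 of 15 (72.3% of all). Each of these motifs reads the same on both strands. A match describes the letters and is no evidence of binding.

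Hdac4, a class IIa HDAC tied to denervation, was the member that changed with genotype. In WT placebo mice 1 to 4 of the Dnm2 cohort Hdac4 was 31.1, 34.2, 40.6 and 26.1 CPM. In Dnm2 S619L/+ placebo mice Hdac4 was 66.2, 70.6, 49.9 and 64.8 CPM. All 4 mutant mice lay above all 4 WT mice. Hdac4 rose 1.91-fold (95% interval 1.55 to 2.35, log2 fold change 0.93 ± 0.14 SE, n = 4 per group, edgeR adjusted p = 0.000376). It was the only member called of 8, called meaning an edgeR quasi-likelihood test with a Benjamini-Hochberg adjusted p under 0.05, whereas 21.9% of all tested genes were called in that comparison. The groups did not overlap for 2 of 8 members, Hdac4 and Dach2, against 24.9% of all tested genes.

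Tamoxifen left Hdac4 of Dnm2 S619L/+ mice near its placebo level. Treated mutant mice 1 to 4 had 61.9, 54.2, 59.4 and 57.9 CPM, all above the 4 WT placebo mice and inside the range of untreated mutants. Hdac4 was 1.77-fold higher in treated mutants than in WT placebo mice (95% interval 1.44 to 2.18, edgeR adjusted p = 0.000788), again 1 of 8 members called beside 28.9% of all tested genes. Both comparisons use the same WT placebo mice and are not independent of each other. Among mice with Xist above 10 CPM, Hdac4 was 26.1 and 31.1 CPM in WT placebo and 64.8 and 66.2 CPM in Dnm2 S619L/+ placebo mice, and among the others it was 34.2 and 40.6 against 49.9 and 70.6 CPM. Within Dnm2 S619L/+ mice, tamoxifen gave a log2 difference of -0.11 (95% interval -0.40 to 0.19, edgeR adjusted p = 0.672). WT mice on tamoxifen had 26.7, 28.9, 37.0 and 27.0 CPM, with a log2 difference from placebo of -0.14 (95% interval -0.44 to 0.16, adjusted p = 0.48). The interaction of genotype and tamoxifen was 0.03 for Hdac4 (95% interval -0.38 to 0.45).

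Hdac4 of the Bin1 cohort did not separate the genotypes. WT mice 5 to 8 had 46.0, 70.4, 50.9 and 38.1 CPM, and Bin1 mck-/- placebo mice 41.0, 56.1, 39.0 and 45.4 CPM. The groups overlapped, with a log2 difference of -0.18 (95% interval -0.72 to 0.37, edgeR adjusted p = 0.75). Bin1 mck-/- tamoxifen mice split into a lower pair, mice 1 and 2 at 35.2 and 36.0 CPM, and a higher pair, mice 3 and 4 at 68.7 and 67.4 CPM. The same mice 3 and 4 had a higher sum of fast fiber markers (105430 and 99022 CPM against 70569 and 56479 CPM in mice 1 and 2), and whether the 2 are linked was not tested. The effect of tamoxifen on Hdac4 in Bin1 mck-/- mice was 0.19 (95% interval -0.35 to 0.74, adjusted p = 0.706).

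The genotype effect on Hdac4 was 1.10 larger on the log2 scale in the Dnm2 model than in the Bin1 model (SE 0.29, 95% interval 0.51 to 1.70), which did not pass the test with edgeR (adjusted p = 0.095) but did with DESeq2 (adjusted p = 0.0233), and with edgeR when Dnm2 S619L/+ placebo mouse 3 was left out (adjusted p = 0.0499). WT placebo mice averaged 33.0 ± 6.03 CPM in the Dnm2 cohort and 51.3 ± 13.8 CPM in the Bin1 cohort (SD, n = 4 each). The libraries of the cohorts were made with 300 ng of RNA and 2 min of fragmentation or with 350 ng and 8 min, so that cohort and protocol cannot be told apart. In bulk muscle, fewer cells of a type and less RNA per cell cannot be told apart either, for Hdac4 and for every gene below. Exons of Hdac4 share 3536 bases with the opposite-strand lincRNA Gm26720. The libraries were stranded, but the strand setting of the counting is not given in the sources used here.

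**Figure D1:**
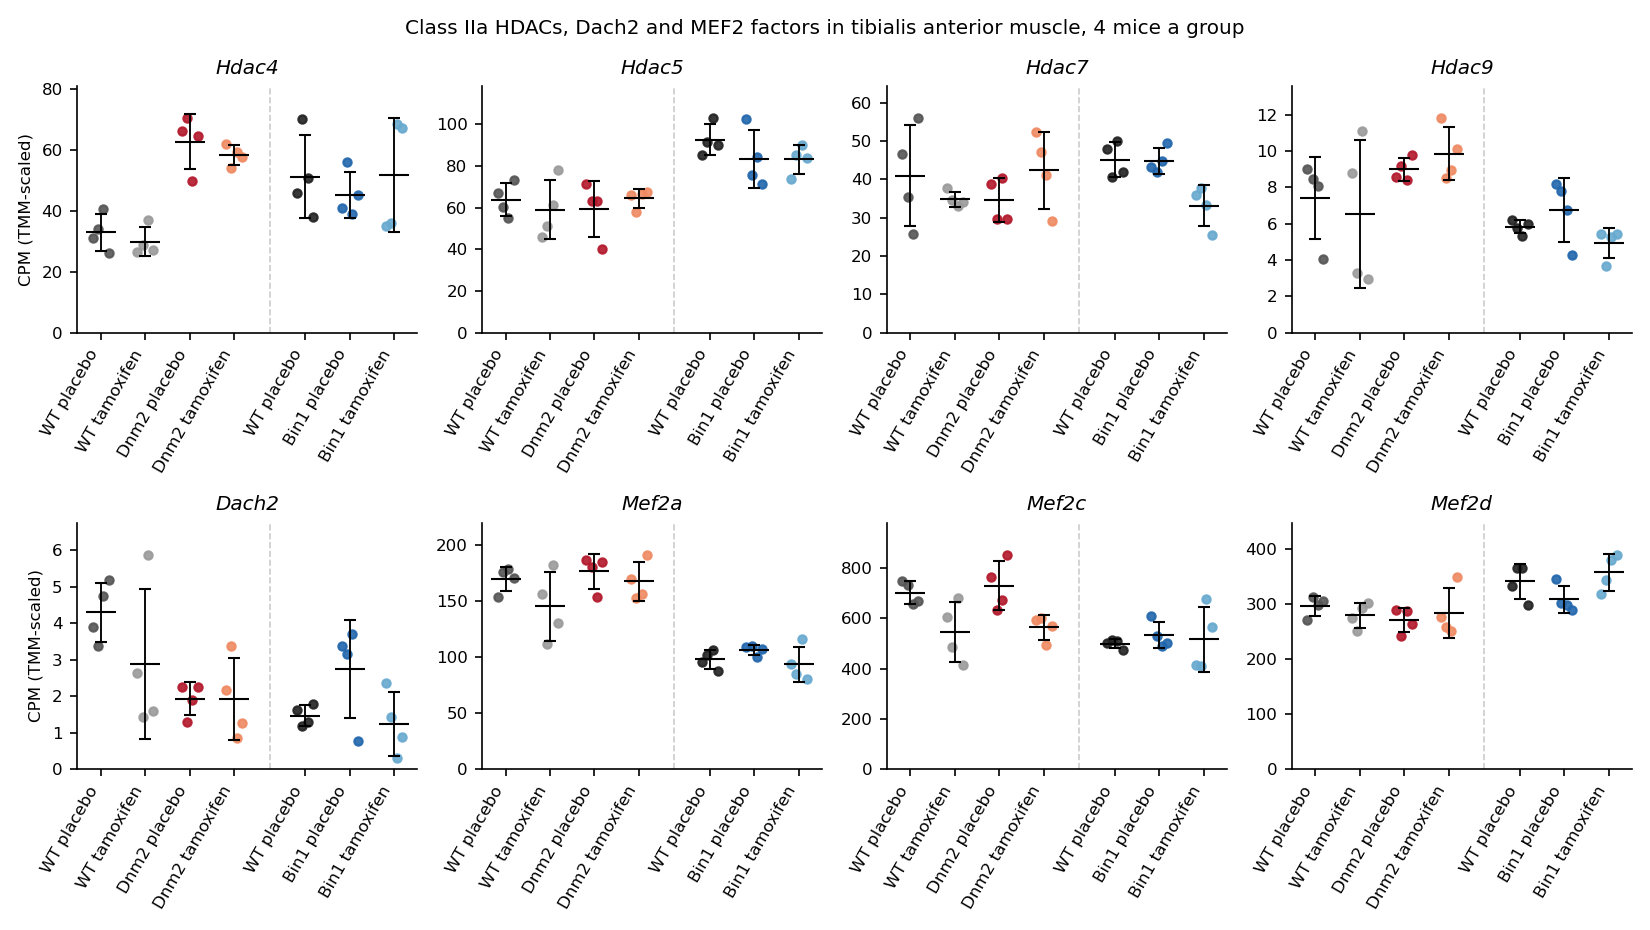
Level of each member (CPM after TMM scaling, vertical axis from 0) in each mouse (points) of the 7 groups, with the group mean and SD (bars, n = 4), Dnm2 cohort left of the dashed line and Bin1 cohort right of it. The Hdac4 points of both Dnm2 S619L/+ groups (named Dnm2) lie above all points of both WT groups of that cohort, and no such separation is seen for Hdac4 in Bin1 mck-/- mice (named Bin1).

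Dach2, the X-linked co-repressor that HDAC4 represses in denervated muscle, was among the weakest members and pointed the opposite way in Dnm2 S619L/+ mice. WT placebo mice had 3.91, 3.37, 4.74 and 5.18 CPM and Dnm2 S619L/+ placebo mice 2.25, 1.30, 1.90 and 2.26 CPM. All mutant mice lay below all WT mice, but the difference did not pass the test (log2 fold change -1.14 ± 0.44 SE, 95% interval -2.08 to -0.21, edgeR adjusted p = 0.0732). It passed with DESeq2 (adjusted p = 0.0359), with only the groups compared in the edgeR fit (adjusted p = 0.00979) and without WT tamoxifen mouse 3 (adjusted p = 0.0332), a mouse that enters through the shared estimate of spread. Among mice with Xist above 10 CPM, Dach2 was 3.91 and 5.18 CPM in WT and 2.25 and 2.26 CPM in mutant mice, and among the others 3.37 and 4.74 against 1.30 and 1.90 CPM.

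With tamoxifen, Dach2 of Dnm2 S619L/+ mice was 2.18, 3.39, 0.842 and 1.27 CPM, and mouse 2 reached the range of WT placebo mice. The log2 difference from WT placebo was -1.16 (SE 0.44, edgeR adjusted p = 0.0579), and it passed with DESeq2 (adjusted p = 0.0296) and without WT tamoxifen mouse 2 (0.049), WT tamoxifen mouse 3 (0.024) or Dnm2 S619L/+ tamoxifen mouse 2 (0.0245, all edgeR adjusted p). Against untreated mutants the difference was -0.02 (95% interval -0.97 to 0.93), and the interval covers large differences in either direction. WT mice on tamoxifen had 2.63, 1.44, 5.89 and 1.59 CPM. Mouse 3 stood above all placebo WT mice and the other 3 stood below them, giving a log2 difference of -0.59 (edgeR adjusted p = 0.324), or of -1.17 without mouse 3 (adjusted p = 0.0344).

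Dach2 was not lower in mutants of the Bin1 cohort. WT mice had 1.62, 1.18, 1.28 and 1.78 CPM, and Bin1 mck-/- placebo mice 3.37, 3.15, 3.70 and 0.772 CPM. Mutant mice 1 to 3 lay above all WT mice and mouse 4 below them (log2 fold change 0.90, 95% interval -0.19 to 1.99, edgeR adjusted p = 0.342). Treated Bin1 mck-/- mice had 2.35, 1.43, 0.310 and 0.877 CPM, a log2 difference of -1.15 from untreated mutants (adjusted p = 0.226). The lowest of these, mice 3 and 4, are the mice with the higher Hdac4. The genotype effects of the models differed by -2.05 for Dach2 (SE 0.70, Dnm2 minus Bin1, edgeR adjusted p = 0.189). WT placebo levels differed between cohorts too, with no overlap (3.37 to 5.18 against 1.18 to 1.78 CPM), and cohort and protocol cannot be told apart there.

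Hdac7, best known from blood vessel endothelium, thymocytes and muscle differentiation, was lower in treated than in untreated Bin1 mck-/- mice. WT mice 5 to 8 had 47.8, 40.6, 50.1 and 42.0 CPM, Bin1 mck-/- placebo mice 43.3, 41.8, 44.7 and 49.4 CPM, and Bin1 mck-/- tamoxifen mice 35.8, 37.8, 33.2 and 25.6 CPM. The treated mice lay below all mice of the other groups. The log2 difference was -0.44 from untreated mutants (SE 0.12, 95% interval -0.70 to -0.18) and -0.45 from WT mice (SE 0.12), and neither passed the test with edgeR (adjusted p = 0.0618 and 0.105). Both passed with DESeq2 (adjusted p = 0.0336 and 0.0449), and the first also with edgeR without Bin1 mck-/- tamoxifen mouse 2 (adjusted p = 0.027), the mouse with the high bone marker sum. Without that mouse, the first comparison went from 464 to 1253 genes called over all genes. The sum of endothelial markers was 320 to 459 CPM in untreated and 194 to 358 CPM in treated Bin1 mck-/- mice, and its part in the Hdac7 values was not tested.

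In the Dnm2 cohort Hdac7 was 46.6, 35.3, 25.7 and 56.0 CPM in WT placebo mice and 37.6, 34.5, 33.1 and 34.1 CPM in WT mice on tamoxifen. It was 38.8, 29.8, 40.3 and 29.8 CPM in Dnm2 S619L/+ placebo mice and 52.4, 47.0, 41.1 and 29.0 CPM in those on tamoxifen. These groups overlapped, and the effect of tamoxifen in mutants was 0.29 (95% interval -0.16 to 0.73, edgeR adjusted p = 0.415). The tamoxifen effect was 0.76 higher in Dnm2 S619L/+ than in Bin1 mck-/- mice (SE 0.25, edgeR adjusted p = 0.0786). It passed without Dnm2 S619L/+ tamoxifen mouse 4 (0.0198) or Bin1 mck-/- tamoxifen mouse 2 (0.0412), both edgeR adjusted p. Without that Bin1 mck-/- mouse, the genes called in this comparison went from 274 to 2195 over all genes.

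Hdac5 and Hdac9, which like HDAC4 restrain MEF2 in muscle and heart, did not pass the test in any comparison. Group means of Hdac5 were between 59.0 and 64.4 CPM in the Dnm2 cohort and between 83.2 and 92.5 CPM in the Bin1 cohort, and its log2 differences between groups of a cohort ran from -0.15 to 0.12. Hdac9 ran from 2.93 CPM (WT tamoxifen mouse 4) to 11.8 CPM (Dnm2 S619L/+ tamoxifen mouse 1). Its lowest unadjusted p was for tamoxifen in Bin1 mck-/- mice, where placebo mice had 8.20, 7.79, 6.74 and 4.29 CPM and treated mice 5.40, 3.67, 5.24 and 5.41 CPM (log2 difference -0.45, edgeR adjusted p = 0.224). The groups overlapped through placebo mouse 4.

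Mef2c, the most abundant member by CPM, was lower in treated than in untreated Dnm2 S619L/+ mice. It was 748, 732, 658 and 669 CPM in WT placebo mice and 604, 487, 679 and 413 CPM in WT mice on tamoxifen. Dnm2 S619L/+ mice had 762, 631, 672 and 853 CPM on placebo and 595, 601, 492 and 569 CPM on tamoxifen. All 4 treated mutants lay below all 8 placebo mice of that cohort, while WT tamoxifen mouse 3 lay within the WT placebo range. The log2 difference by tamoxifen was -0.37 in mutants (SE 0.14, edgeR adjusted p = 0.118) and -0.36 in WT mice (SE 0.14, adjusted p = 0.069), and the interaction was -0.01 (95% interval -0.43 to 0.42). Treated mutants were 0.31 lower than WT placebo mice on the log2 scale (adjusted p = 0.108). In WT mice the difference passed with DESeq2 (adjusted p = 0.0441) and with edgeR without WT tamoxifen mouse 3 (0.0189). The bone marker sums given above moved with treatment in the same mice, and their part was not tested. Dnm2 S619L/+ tamoxifen mouse 4, whose bone marker sum was 5.06 CPM, had 569 CPM of Mef2c.

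Mef2c of the Bin1 cohort was 502, 514, 508 and 472 CPM in WT mice and 610, 529, 491 and 503 CPM in Bin1 mck-/- placebo mice. Treated mutants had 413, 409, 674 and 566 CPM, with mice 3 and 4 again above mice 1 and 2. The tamoxifen effect was -0.05 (95% interval -0.37 to 0.28), and its difference from that in Dnm2 S619L/+ mice was -0.29 (edgeR adjusted p = 0.405).

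Mef2a and Mef2d, the other MEF2 factors of adult muscle, did not pass the test in any comparison. Group means of Mef2a were 145 to 176 CPM in the Dnm2 cohort and 93.6 to 106 CPM in the Bin1 cohort. Tamoxifen gave Mef2a a log2 difference of -0.22 in WT mice (edgeR adjusted p = 0.214), which passed without WT tamoxifen mouse 3 (adjusted p = 0.0447). Mef2d was 270 to 298 CPM and 309 to 358 CPM on average in the groups of the cohorts, with log2 differences from -0.14 to 0.21 between groups of a cohort. Exons of Mef2d share 531 bases with the antisense gene 1700113A16Rik and those of Mef2a 302 bases with Lysmd4, so that reads there cannot be assigned without the strand setting.

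**Figure D2:**
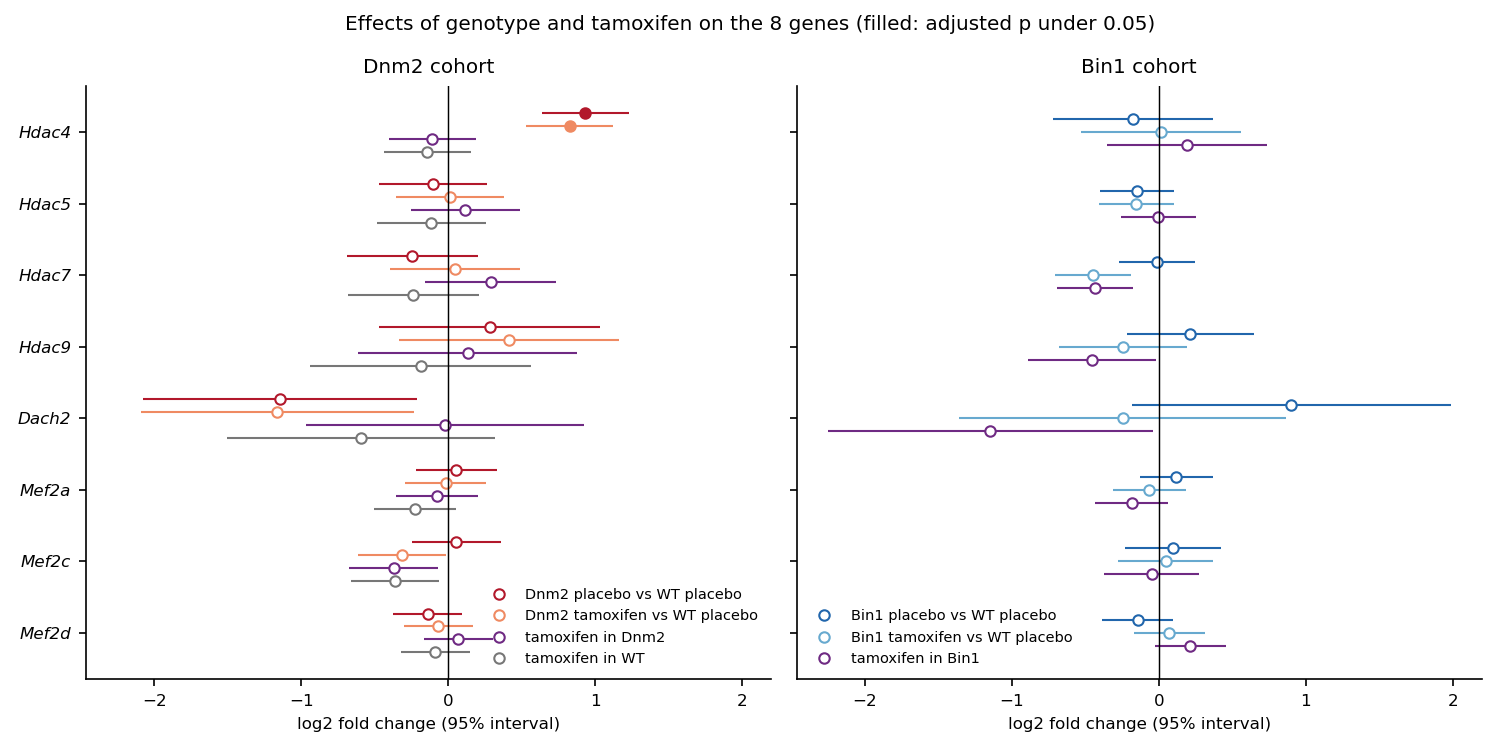
Log2 fold change (horizontal axis) of each member with its 95% interval (edgeR, n = 4 per group) for 4 comparisons in the Dnm2 cohort and 3 in the Bin1 cohort; filled points have an adjusted p under 0.05. The 2 filled points are Hdac4 in untreated (0.93) and treated (0.83) Dnm2 S619L/+ mice against WT placebo mice, and the intervals of Dach2 are the widest.

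Apart from Hdac4 in untreated and in treated Dnm2 S619L/+ mice against WT placebo mice, no member was called by edgeR in any comparison. The counts over all 8 stood beside those of all tested genes as follows. Tamoxifen in WT mice had 0 of 8 called (1 at an unadjusted p under 0.05, and 1 by DESeq2), beside 27.7% of all genes called. No member had groups that did not overlap, beside 31.4% of all genes. In Dnm2 S619L/+ mice tamoxifen had 0 of 8 called (1 unadjusted, 0 by DESeq2), beside 8.27% of all genes, and Mef2c alone did not overlap, beside 10.4%. Treated mutants against WT placebo mice had Hdac4 and Mef2c without overlap, beside 26.1% of all genes. The interaction in the Dnm2 cohort had 0 of 8 called (0 unadjusted, 0 by DESeq2), beside 0.259% of all genes.

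Bin1 mck-/- against WT placebo mice had 0 of 8 called by edgeR (0 at an unadjusted p under 0.05, 0 by DESeq2), beside 2.61% of all genes called, and no member without overlap, beside 16.5%. Tamoxifen in Bin1 mck-/- mice had 0 of 8 called (3 unadjusted, 1 by DESeq2), beside 3.13%, and Hdac7 alone did not overlap, beside 9.8%. Treated Bin1 mck-/- against WT mice had 0 of 8 called (1 unadjusted, 1 by DESeq2), beside 0.849%, and again Hdac7 alone did not overlap, beside 7.97%. For the difference of genotype effects between the models, edgeR called 0 of 8 (2 unadjusted, 1 by DESeq2), beside 0.312% of 16036 genes, and for the difference of tamoxifen effects 0 of 8 (1 unadjusted, 0 by DESeq2), beside 1.71%. All percentages of genes called are those of edgeR, and DESeq2 called more genes in every comparison. In the Bin1 cohort DESeq2 called 1149 for genotype, 1166 for tamoxifen and 521 for treated mutants against WT, where edgeR called 388, 464 and 126.

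Per kilobase of exon, Mef2d and Mef2c stood above the other members. Group means of Mef2d were 45.2 to 59.8 CPM per kb and those of Mef2c 31.8 to 46.4 CPM per kb. Mef2a was at 6.37 to 12.0, Hdac5 at 6.72 to 10.5 and Hdac7 at 4.90 to 6.68 CPM per kb. Over both cohorts the range of Mef2a overlapped those of both deacetylases, while that of Hdac7 ended below that of Hdac5. Within cohorts Mef2a and Hdac5 did not overlap. Mef2a was higher in the Dnm2 cohort (9.88 to 12.0 against 6.72 to 7.34) and lower in the Bin1 cohort (6.37 to 7.24 against 9.47 to 10.5). Hdac4 was at 1.89 to 3.98 CPM per kb, below all of them. Hdac9 (0.336 to 0.671 CPM per kb) and Dach2 (0.126 to 0.436 CPM per kb) were lowest. Their ranges overlapped only across cohorts, and Hdac9 was above Dach2 within each. The ranges were 0.445 to 0.671 against 0.194 to 0.436 in the Dnm2 cohort and 0.336 to 0.461 against 0.126 to 0.279 in the Bin1 cohort.

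The genes whose level followed each member most closely over the 28 mice were listed from 10874 expressed genes, by Pearson correlation of log2 CPM after the mean of each cohort was removed. Such correlations describe these mice, which share libraries, depth and group, and carry no p. Hdac4 was closest to Gadd45a, a stress and denervation gene (r = 0.865, or 0.588 with group means removed), then to Slc25a37 (0.824) and Ap2a2 (0.812). With group means removed the order was the reverse, Ap2a2 at 0.750 and Slc25a37 at 0.686 above Gadd45a, and within the Bin1 cohort Gadd45a was at 0.607 against 0.792 for Slc25a37 and 0.746 for Ap2a2. Gadd45a was 24.8, 27.4, 28.6 and 20.1 CPM in WT placebo mice and 105, 98.4, 70.4 and 92.2 CPM in Dnm2 S619L/+ placebo mice. As for Hdac4, the mutant mouse with the lowest value was mouse 3. Dach2 was closest to Ephx2 (0.795), Afg1l (0.784) and Got1 (0.771), and its correlation with Hdac4 was -0.469 (-0.336 with group means removed). The closest gene was Map3k11 for Hdac7 (0.853), Dctn1 for Hdac5 (0.763), Itgb6 for Hdac9 (0.759), Efcab14 for Mef2a (0.844), Uso1 for Mef2c (0.828) and March6 for Mef2d (0.826).

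**Figure D3:**
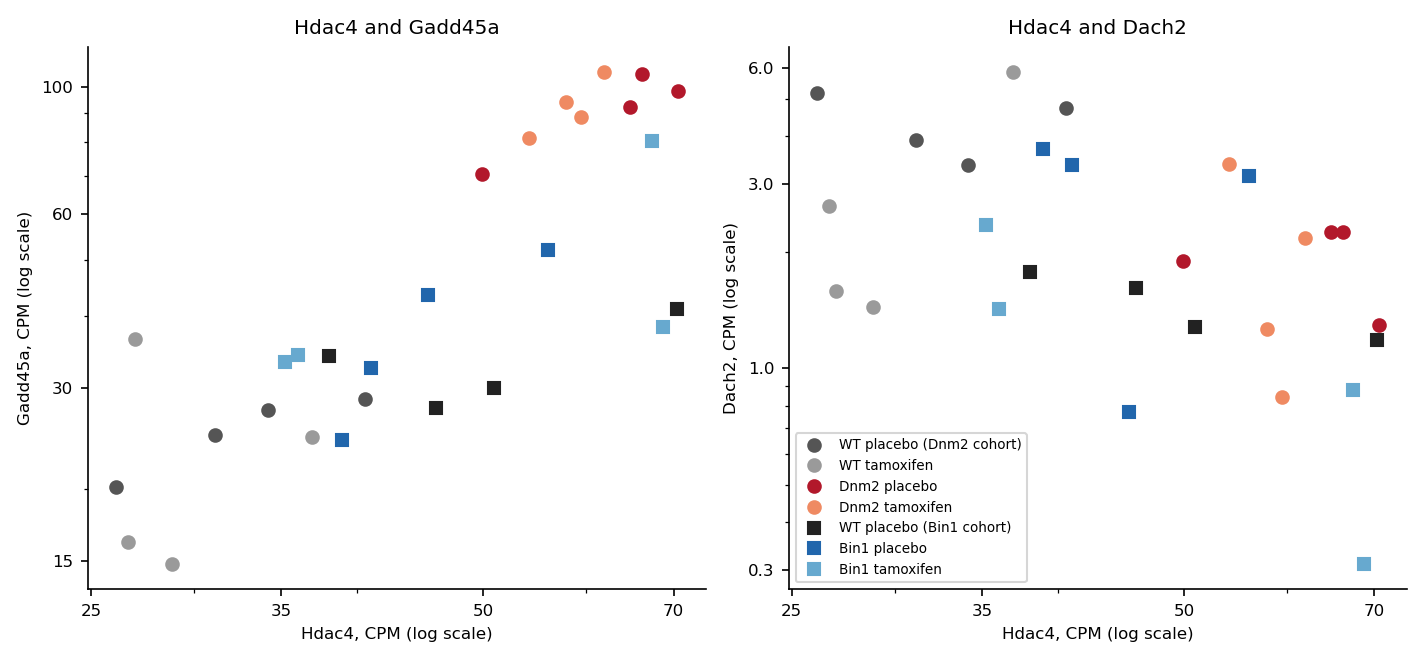
Hdac4 (horizontal axis) against Gadd45a (left) and Dach2 (right), in CPM on log axes; each point is 1 of 28 mice, circles for the Dnm2 cohort and squares for the Bin1 cohort. The 8 Dnm2 S619L/+ mice (red and orange) have Hdac4 between 49.9 and 70.6 CPM and Gadd45a between 70.4 and 106 CPM.

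Some of the genes that muscle switches on after loss of its nerve supply were higher in Dnm2 S619L/+ mice, and their dependence on Hdac4 was not tested. Of 13 tested, 7 rose and 0 fell in untreated mutants, beside 21.9% of all tested genes called, with a median log2 fold change of 1.46 against 0.02 for all genes (edgeR). Runx1, a transcription factor of denervated muscle (3.39), the gamma, delta and alpha acetylcholine receptor subunits Chrng (3.26), Chrnd (2.60) and Chrna1 (1.14), Myog (myogenin, 2.85), the adhesion molecule Ncam1 (2.38) and Gadd45a (1.86) rose, with adjusted p from 1.48e-05 to 0.0218. In treated Dnm2 S619L/+ mice 6 of 13 were higher than in WT placebo mice (median 1.08), beside 28.9% of all tested genes called. They included Runx1 (3.97), Myog (2.31) and Gadd45a (1.88), and Chrnd was not called there. The sum of fast fiber markers was 68131 to 93787 CPM in WT placebo and 50086 to 70977 CPM in Dnm2 S619L/+ placebo mice.

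Tamoxifen within Dnm2 S619L/+ mice moved none of these 13 genes past the test (0 called by edgeR, 2 at an unadjusted p under 0.05 and 1 by DESeq2). Over all tested genes edgeR called 8.27% there. In WT mice tamoxifen raised Runx1 (3.30) and Ncam1 (2.30) and lowered Chrna1 (-1.87) and Chrnd (-2.29). These are 4 of 13 called by edgeR, a share near the 27.7% of all genes called there. Runx1 had a negative interaction of genotype and tamoxifen (-2.73, edgeR adjusted p = 0.0248), 1 of 13 called beside 0.259% of all genes. Runx1 also acts in cartilage and bone, and the bone marker sums of WT mice on tamoxifen were 190 to 693 CPM. Their part in the values of Runx1 and Ncam1 was not tested.

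In Bin1 mck-/- placebo mice 3 of the 13 denervation genes rose, Runx1 (2.41), Myog (2.27) and Ncam1 (1.98), beside 2.61% of all tested genes called (edgeR). The median of the 13 was 0.997 against 0.01 for all genes, while Hdac4 and Gadd45a (0.20) did not pass the test. DESeq2 called 7 of the 13 there, all higher, and 8 had an unadjusted p under 0.05 with edgeR. Over all genes DESeq2 called 1149 there and edgeR 388. Tamoxifen in Bin1 mck-/- mice lowered Chrnd (-2.70) and Chrna1 (-1.19) and raised Fbxo32 (0.86), an E3 ubiquitin ligase of muscle atrophy, with a median of -1.02. These are 3 of 13 called by edgeR, beside 3.13% of all genes, and 10 had an unadjusted p under 0.05. DESeq2 called 7 of 13 there, 2 higher and 5 lower. Treated Bin1 mck-/- mice differed from WT mice in 1 of 13, the atrophy ligase Trim63 (1.33), beside 0.849% of all genes (edgeR), and in 4 with DESeq2. The difference of genotype effects between the models passed the test for none of the 13 (0 called by edgeR, 1 at an unadjusted p under 0.05 and 1 by DESeq2), beside 0.312% of all genes with edgeR.

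Kinases that phosphorylate class IIa HDACs and send them out of the nucleus moved in both directions in Dnm2 S619L/+ mice. Of 13 tested, 4 rose and 2 fell in untreated mutants, beside 21.9% of all tested genes called, with a median of -0.25 against 0.02 for all genes (edgeR). The calcium/calmodulin-dependent kinase genes Camk2d (1.49) and Camk2b (0.35), the AMP-activated kinase subunit Prkaa1 (1.02) and the salt-inducible kinase Sik1 (1.04) rose, and Camk2a (-0.55) and Sik2 (-0.79) fell. Tamoxifen in Dnm2 S619L/+ mice lowered Camk2d (-0.67) and Prkaa1 (-0.66), raised Prkd3 (0.55) and Camk4 (4.44), and left Camk2d (0.82) and Prkaa1 (0.36) above WT placebo. Within these mutants tamoxifen had 4 of 13 called by edgeR, beside 8.27% of all genes. In WT mice tamoxifen also raised Prkd3 (0.41) and Camk4 (5.29) and lowered Camk2a (-0.55) and Prkaa2 (-0.44). These are 4 of 13 called, beside 27.7% of all genes. In Bin1 mck-/- mice edgeR called 1 of 12 kinases, Prkaa1, which rose against WT mice (0.78) and fell with tamoxifen (-0.65), beside 2.61% and 3.13% of all genes. DESeq2 called 3 and 2 kinases in these comparisons. Camk2d had log2 differences of 0.59 (edgeR adjusted p = 0.0724) and -0.60 (0.0685) in them. In treated Bin1 mck-/- against WT mice edgeR called 0 of 12 (1 at an unadjusted p under 0.05, 0 by DESeq2), beside 0.849% of all genes.

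Camk4, a calcium/calmodulin-dependent kinase of neurons and lymphoid and bone cells, stood at 0 to 0.119 CPM in all placebo mice of the Dnm2 cohort. It was 1.18 to 2.55 CPM in WT mice on tamoxifen and 1.17, 2.15, 1.60 and 0.0617 CPM in treated Dnm2 S619L/+ mice 1 to 4, of which mouse 4 was also the one with a bone marker sum of 5.06 CPM. Camk4 in Bin1 mck-/- tamoxifen mouse 2, whose bone marker sum was 202 CPM, was 1.55 CPM. The part of bone markers in the Camk4 values was not tested.

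**Figure D4:**
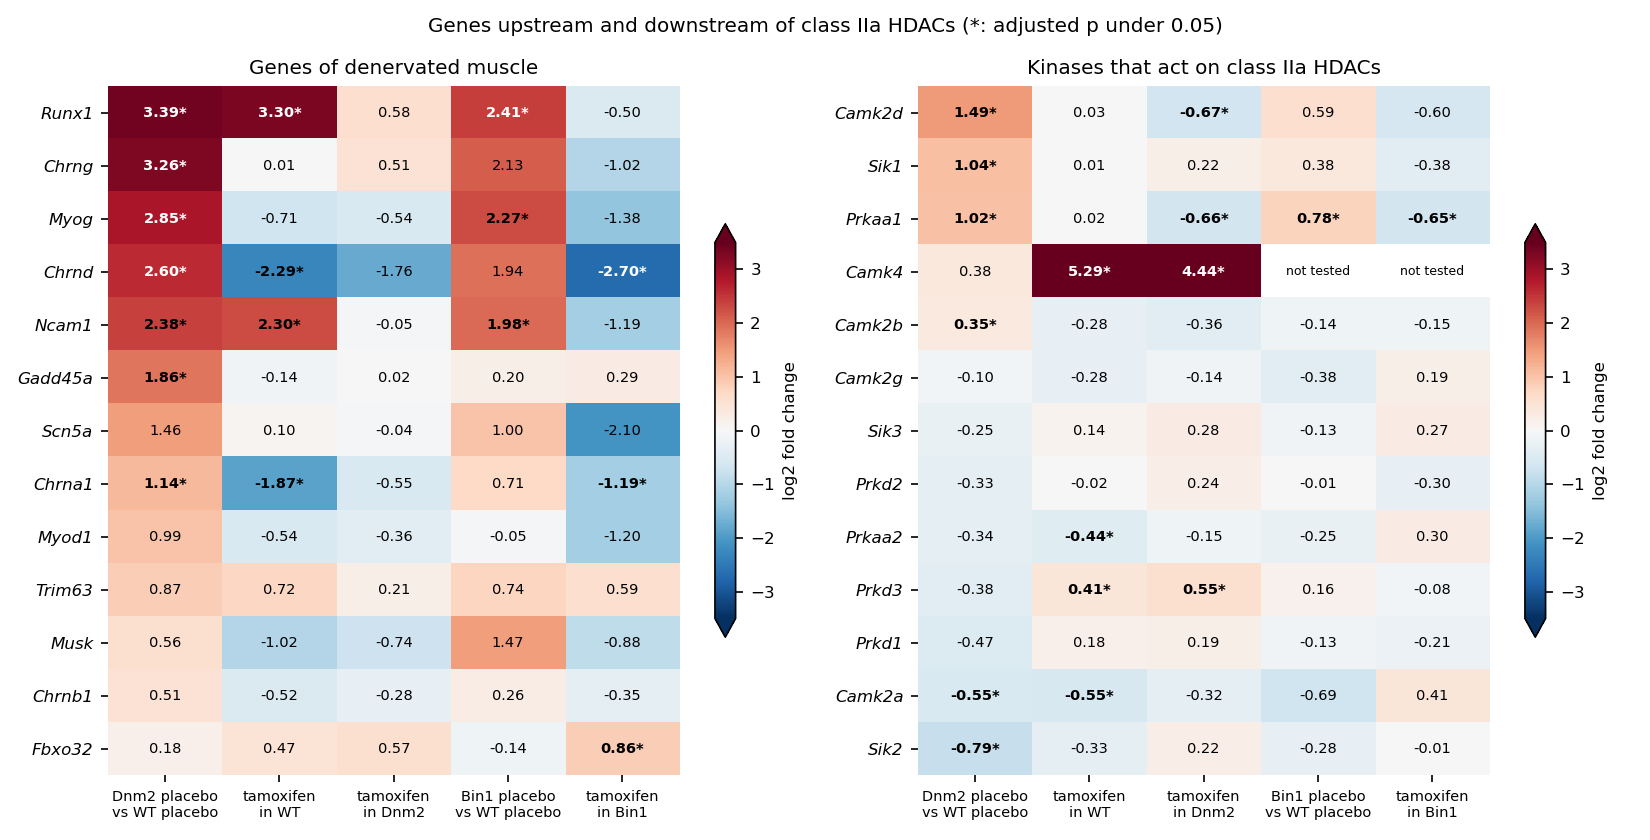
Log2 fold changes (color and printed values) of 13 genes of denervated muscle (left) and 13 kinases of class IIa HDACs (right) in 5 comparisons (columns, n = 4 mice per group); an asterisk marks an edgeR adjusted p under 0.05, and Camk4 was not tested in the Bin1 cohort. In the first column 7 denervation genes carry an asterisk, from Runx1 (3.39) to Chrna1 (1.14), and the column of tamoxifen in Dnm2 S619L/+ mice carries none among them.

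Calcineurin and its NFAT factors form the other calcium route to MEF2. Of 8 genes tested, Nfatc2 (1.04) and Rcan1 (1.30), an inhibitor of calcineurin that NFAT induces, rose in Dnm2 S619L/+ placebo mice. This share of 2 of 8 is near the 21.9% of all tested genes called, and the median was 0.01 against 0.02 for all genes (edgeR). Tamoxifen lowered Rcan1 in these mice (-1.09), while Nfatc2 stayed higher than in WT placebo mice (0.88). In WT mice tamoxifen raised Nfatc4 (1.82). In the Bin1 cohort none of the 8 passed the test (0 called by edgeR, 3 at an unadjusted p under 0.05 and 3 by DESeq2 for genotype and 0 called by edgeR, 3 at an unadjusted p under 0.05 and 3 by DESeq2 for tamoxifen).

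Genes driven by MEF2 factors in muscle did not move in 1 direction. Of 9 tested, Myh7, the slow myosin heavy chain, rose in Dnm2 S619L/+ placebo mice (3.11), and Myom1 of the sarcomeric M-band (-0.65), the glucose transporter Slc2a4 (-0.51) and Ppargc1a, the coactivator of oxidative metabolism (-1.59), fell, with a median of -0.39 against 0.02 for all genes (edgeR). These are 4 of 9 called, beside 21.9% of all tested genes. In WT mice tamoxifen lowered Slc2a4 (-0.45) and Myom1 (-0.32), 2 of 9 called by edgeR beside 27.7% of all genes, and DESeq2 called 5 of 9, all lower. In the Bin1 cohort none of the 9 passed (0 called by edgeR, 2 at an unadjusted p under 0.05 and 1 by DESeq2 for genotype, 0 called by edgeR, 3 at an unadjusted p under 0.05 and 2 by DESeq2 for tamoxifen).

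Among 9 other HDACs and co-repressors 1 was called in Dnm2 S619L/+ placebo mice, beside 21.9% of all tested genes. Ncor1, the co-repressor that class IIa HDACs recruit together with HDAC3, fell in Dnm2 S619L/+ placebo mice (-0.55, edgeR adjusted p = 0.00409) and was lower in treated mutants than in WT placebo mice too (-0.43, adjusted p = 0.0121). Hdac1, a class I deacetylase, was higher in that last comparison (0.51, adjusted p = 0.0418). Hdac11 fell with tamoxifen in WT mice (-0.55), and in the Bin1 cohort none of the 9 passed (0 called by edgeR, 2 at an unadjusted p under 0.05 and 0 by DESeq2 for genotype, 0 called by edgeR, 4 at an unadjusted p under 0.05 and 2 by DESeq2 for tamoxifen). Dach2 works in a network with Eya factors. Of 6 relatives of Dach2 and its partners tested, 1 was called by edgeR in untreated Dnm2 S619L/+ mice, beside 21.9% of all genes, and 1 with tamoxifen in Bin1 mck-/- mice, beside 3.13%. Eya1 fell in Dnm2 S619L/+ placebo mice (-0.68, adjusted p = 0.0438) and Eya4 rose with tamoxifen in Bin1 mck-/- mice (0.69, adjusted p = 0.0305).

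Other cell types and fiber types also moved with the groups in which members moved. In Dnm2 S619L/+ placebo mice the sum of endothelial markers was 146 to 428 CPM against 333 to 666 CPM in WT placebo mice. Of the 5 endothelial genes 4 were called lower, beside 9.81% of all tested genes called lower (edgeR). The satellite cell sum was 1.35 to 2.79 CPM against 5.38 to 7.89 CPM. Of its 2 genes, Pax7 was called lower (-2.72), while Myf5 had a log2 difference of -0.07 (edgeR adjusted p = 0.907). Leukocyte markers summed to 20.6 to 92.7 CPM against 16.2 to 26.0 CPM. The part of these cells in the member values was not tested. Markers of fast fibers, the main fibers of TA muscle, summed to between 40206 and 105430 CPM in all 28 mice.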

How the data were processed

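RNA was taken from TA muscle of 28 mice, and stranded libraries of polyadenylated RNA were sequenced. Raw counts, 1 table per cohort with an Ensembl gene on each line, were deposited by the authors. The submitters' processing notes name bcl2fastq 2.20.0.422, cutadapt 1.10, Bowtie 1.2.2, STAR 2.5.3, HTSeq 0.6.1p1 and mm39, with no roles or strand setting. Symbols came from GENCODE M21. In the Bin1 cohort, 4 lines that name no gene, with 22.0% to 30.8% of counts, stayed out of library sizes and tests. No 2 samples of the same group were duplicates of each other, and pairs from different groups were not examined.

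Members and gene lists were chosen with earlier results of these data known. Each cohort was fitted with edgeR 4.0.16 in R 4.3.3 (TMM scaling, default filter on low counts, robust quasi-likelihood test, prior count 2), all groups of a cohort together, and differences between cohorts were fitted over all 28 mice. A gene was called when its p, adjusted by Benjamini-Hochberg over all tested genes, was under 0.05. Scripts were tested on simulated data. Alternatives were RLE scaling, no filter, DESeq2 1.42.0, only the groups compared, a replicate block, each mouse left out, and Xist status as a covariate, the last chosen after seeing the data. Genes named were the members, the marker genes, the 3 genes closest to each member and, of each pathway list, up to 3 with the smallest p in a comparison, and further list genes past the threshold were added after their values were seen. Replicate numbers were not used as pairs: correlations of same-numbered deviations were not all above 0.1, and no source says what they share. With 4 mice a group this check cannot exclude a pairing. Replicates were taken as separate mice, so that p-values measure the spread between these samples. No protein sequence was used here.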

Additional observations from a re-analysis of the deposited data

Results flagged for a closer look

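Hdac9 in Bin1 mck-/- tamoxifen mouse 2 was 3.67 CPM, whereas the other 3 mice of that group had 5.24 to 5.41 CPM, and its gap to the nearest mouse was large for the range of the group (Dixon's test). It was the single group of 56 (8 genes in 7 groups of 4 mice) with such a mouse, and chance gives about 1 group in 20. The same mouse had a bone marker sum of 202 CPM, and the part of these cells in the Hdac9 value was not tested.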

How the results depend on the processing

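Hdac4 was called in untreated and in treated Dnm2 S619L/+ mice under all 22 alternatives, with log2 fold changes of 0.84 to 1.07 and 0.73 to 0.95. The number of members called changed from 1 to 2 in both of these comparisons under DESeq2, and to 2 in the first with only the groups compared. DESeq2 called 1 member in place of 0 for tamoxifen in WT, tamoxifen in Bin1 mck-/-, treated Bin1 mck-/- against WT, and the difference of genotype effects. With each mouse left out, the members called ranged from 1 to 2 in untreated and in treated Dnm2 S619L/+ mice against WT, from 0 to 3 for tamoxifen in WT, and from 0 to 1 for tamoxifen in Bin1 mck-/- and for both differences between the models. The mice concerned are named in the report with the values without them. Replicate numbers were not used as pairs, and the fit with a replicate block called 1, 0, 0, 1 and 0 members in the 5 comparisons of the Dnm2 cohort and 0 for tamoxifen in Bin1 mck-/-, as without it. Xist status as a covariate left the members called at 1, 0, 0, 1 and 0.

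Small effects that were never called changed sign. Dach2 under tamoxifen in Dnm2 S619L/+ mice was 0.025 with only the groups compared, 0.020 with the replicate block and 0.0087 with Xist status, and from -0.43 to 0.22 with a mouse left out. Hdac4 in treated Bin1 mck-/- against WT was -0.0013 without the filter and from -0.15 to 0.20 with a mouse left out. With a mouse left out, Hdac4 ranged from -0.094 to 0.15 for the interaction and from -0.30 to 0.010 in Bin1 mck-/- against WT, and Dach2 from -0.74 to 0.070 in treated Bin1 mck-/- against WT. Of the members' other effects, 18 of 53 changed sign in 68 of 1173 values, none beyond 0.15. The causes were not tested.

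Over all genes, tamoxifen in Dnm2 S619L/+ mice called 1277, but 30 with only the groups compared, 515 with Xist status, 814 without the filter and 843 with the block. The interaction called 40, or 322 with DESeq2, 20 with RLE, 10 with the block and 140 with Xist status. Bin1 mck-/- against WT called 388, or 1149 with DESeq2 and 1458 with only the groups compared. Tamoxifen in Bin1 mck-/- called 464, or 1166, 122 and, with the block, 152. Treated Bin1 mck-/- against WT called 126, or 521 with DESeq2 and 210 without the filter, and the differences between the models called 50 and 274, or 228 and 1349 with DESeq2 and, for the second, 63 without the filter. With a mouse left out, the genes called ranged from 368 to 2562 for tamoxifen in Dnm2 S619L/+ mice and from 1 to 293 for the interaction. The ranges were 18 to 759 for Bin1 mck-/- against WT, 160 to 1253 for tamoxifen in Bin1 mck-/- and 42 to 266 for treated Bin1 mck-/- against WT. For the differences between the models they were 13 to 154 and 6 to 2195. Dach2 had the lowest levels and the widest intervals of the members, and a difference that missed the threshold there is not shown to be absent.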

Other observations

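Fiber type markers moved in both models. Of 6 genes of slow fibers, 5 rose in Dnm2 S619L/+ placebo mice, beside 12.1% of all tested genes called higher (edgeR). Among the 5 were the slow troponins Tnni1 (3.33) and Tnnc1 (2.12), and the ventricular and slow light chain Myl3 fell (-1.96). Among 5 fast fiber genes edgeR called 1 there, Myh4, which was lower (-0.75), beside 21.9% of all genes called. In Bin1 mck-/- placebo mice edgeR called 1 of the 6 slow fiber genes, Myl3, which was lower (-1.60). Tnni1 had a log2 fold change of 2.46 (adjusted p = 0.0998) and Myl2 of -2.54 (adjusted p = 0.102). DESeq2 called 4 of the 6 there, 2 higher and 2 lower. The slow fiber sum was 112 to 215 CPM in these mice and 270 to 457 CPM in WT mice of that cohort. In the Dnm2 cohort this sum overlapped, at 36.5 to 280 CPM in untreated mutants and 66.96 to 144 CPM in WT placebo mice. The fast fiber genes Actn3 (-1.05) and Pvalb (-1.12) were lower in Bin1 mck-/- placebo mice, 2 of 5 called by edgeR beside 2.61% of all genes. Both rose with tamoxifen (Actn3 1.05, Pvalb 1.33), again 2 of 5 called, beside 3.13%. Myh1 of the same list pointed the other way in these comparisons (0.37 and -0.17) and was not called. The tamoxifen effect on Pvalb and Actn3 was lower in Dnm2 S619L/+ than in Bin1 mck-/- mice (-2.09 and -1.39, edgeR adjusted p = 0.0184 and 0.0446). These are 2 of 5 called, beside 1.71% of all genes, and Myh1 was not called and pointed the other way (0.52). The genotype effects on the 6 slow genes did not pass the test of the difference (0 called by edgeR, 2 at an unadjusted p under 0.05 and 1 by DESeq2).

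Markers of other cells moved as well. Pax7 of satellite cells was lower in Bin1 mck-/- than in WT mice (-1.44), and the myelin gene Mbp fell by 1.72 on the log2 scale with tamoxifen in Bin1 mck-/- mice (edgeR). Tendon markers summed to 1.95 to 140 CPM in WT placebo mice and 396 to 893 CPM in WT mice on tamoxifen. Of these genes 4 of 4 were called higher, beside 15.8% of all tested genes called higher (edgeR).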
